A study of Mus musculus with 3 samples.

Results

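The nuclear-encoded subunit genes of oxidative phosphorylation were followed across liver cells of mice with 3 Adar1 genotypes. Members were chosen by symbol: features that start with Nduf, Uqcr, Atp5, Cox4i, Cox5, Cox6, Cox7 or Cox8, and the genes Cyc1, Sdha, Sdhb, Sdhc and Sdhd, with -ps pseudogenes and Cox6a2 left out. The rule found 93 of 32285 genes, on 19 chromosomes. Of these, 44 belong to complex I (8 of them assembly factors), 4 to complex II, 9 to complex III, 19 to complex IV and 17 to complex V. The animals were male C57BL/6 mice aged 9 weeks. All 3 groups lacked Ifih1 (Ifih1-/-), which encodes MDA5, a sensor of double-stranded RNA, and all carried Alb-Cre, a recombinase driven by the albumin promoter and so active in hepatocytes. The groups differed in the Adar1 allele: Adar1 wt/wt, Adar1 wt/flox and Adar1 flox/flox. Where 3 values are given without names, they stand in the order wt/wt, wt/flox, flox/flox, called library order below. Each group was 1 library of droplet single-cell RNA sequencing with 3' tags, so no difference below has a replicate check, and genotype, animal and library cannot be told apart. Which part of Adar1 the floxed allele removes, and whether a library held cells of 1 animal or several, is not given in the sources used here.

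Oxidative phosphorylation couples electron transfer in the inner mitochondrial membrane to ATP synthesis. Complexes I and II pass electrons from NADH and succinate to coenzyme Q, complex III passes them to cytochrome c, complex IV reduces oxygen, and complex V makes ATP from the proton gradient. Most subunits are encoded in the nucleus and imported, while a small core of complexes I, III, IV and V is encoded in mitochondrial DNA, so a working chain needs both sets. Hepatocytes are rich in mitochondria and use the chain for urea synthesis, gluconeogenesis and fatty acid oxidation.

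The deposited files held 10000 barcodes per library, with 9744380 to 10756790 UMIs (unique molecular identifiers, each a counted transcript) per library and a lowest barcode of 636 to 727 UMIs. Filters on depth and mitochondrial share kept 9772 to 9920 barcodes per library. Pairs of libraries shared 20 to 32 barcode sequences. Clustering gave 8142, 7216 and 7747 hepatocyte-like barcodes in library order, and droplets that hold only free RNA of hepatocytes cannot be told from these. The median share of mitochondrially encoded UMIs in them was 5.02%, 4.18% and 7.91%. Adar, whose 3' tag does not check a deletion elsewhere in the gene, stood at 11.1, 18.3 and 39.2 CPM (a gene's part of the UMIs without mitochondrially encoded genes, 10000 CPM being 1%) in that order, highest in the library labelled flox/flox. Of the other classes' markers, the summed level in hepatocyte-like barcodes was 471.7, 552.1 and 716.4 CPM for 11 monocyte or macrophage markers and 19.9, 91.5 and 179.3 CPM for 8 neutrophil markers. It was 228.9, 310.7 and 447.9 CPM for 7 plasmacytoid dendritic markers, 180.6, 216.6 and 291.0 for 8 bile duct markers, and 104.1, 138.1 and 43.3 for 6 erythroid markers. The 12 hepatocyte markers summed to 85150, 77710 and 76700 CPM. Of the neutrophil markers 4, 3 and 3 were at 0, and of the monocyte or macrophage markers 4, 2 and 2. These sums were not split by gene. A single gene can carry a sum, so a higher sum need not mean more RNA from cells of that class. The remaining classes summed to at most 36.6 CPM in any library. Their part in the results on the subunit genes was not tested.

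In hepatocyte-like barcodes the subunit genes made up 4.35% of UMIs in wt/wt (exact Poisson 95% interval 4.33 to 4.36), 4.64% in wt/flox (4.63 to 4.66) and 3.71% in flox/flox (3.70 to 3.72). These shares rest on 313181, 307497 and 274491 UMIs and leave mitochondrially encoded genes out of the denominator. All intervals here cover counting error only. The flox/flox library thus held the lowest level and wt/flox the highest. The summed level in flox/flox was 0.853 of that in wt/wt and 0.799 of that in wt/flox, and that in wt/flox was 1.07 of wt/wt. On the log2 scale the summed ratios were -0.23 (-0.24 to -0.22), -0.32 (-0.33 to -0.32) and 0.094 (0.087 to 0.10). Some members have near-identical copies elsewhere in the genome, and how reads were split between copies is not given in the sources used here.

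Single genes gave the same picture. A gene counted as measured from 20 UMIs in all, which 88 of 93 members and 11326 genes in all reached. Of the other 5, Cox4i2, Cox7b2, Cox8b and Cox8c had 0 UMIs and Cox6b2 had 2, 4 and 2 UMIs in library order. The median log2 ratio of the 88 members was -0.24 for flox/flox over wt/wt, -0.32 for flox/flox over wt/flox and 0.090 for wt/flox over wt/wt. The same medians over all genes were 0.12, 0.092 and 0.026, so the members lay 0.36 and 0.41 below the median gene in flox/flox and 0.063 above it in wt/flox. The comparisons share libraries pairwise and are not independent of each other. In barcodes with at least 2000 UMIs, of which there were 118, 98 and 374 in library order, the medians were -0.41, -0.35 and -0.066, so that wt/flox and wt/wt changed places.

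At least 1.2-fold lower in flox/flox than in wt/wt were 37 of 88 members, where 19.1% of all genes were. Only 3 members were 1.2-fold higher, against 37.8% of all genes. Against wt/flox, 57 members were 1.2-fold lower and 1 higher, where the shares of all genes were 21.2% and 34.7%. In wt/flox over wt/wt, 17 members were 1.2-fold higher and 1 lower, with 24.6% and 19.7% of all genes. The differences were small per gene: only Ndufb9 was 1.5-fold lower in flox/flox than in wt/wt (6.48% of all genes were) and none was 1.5-fold higher (16.3%). These shares of all genes include genes with as few as 20 UMIs, which can pass such folds by counting error. Of the 88 members, 86 had at least 200 UMIs, so the shares are not matched to the members in depth. Ordered against both other libraries, flox/flox was lowest for 69 of 88 members and highest for 4, where 28.4% and 47.8% of genes with at least 50 UMIs were. It was at least 1.2-fold below both for 30 members, where 10.5% of genes were.

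**Figure D1:**
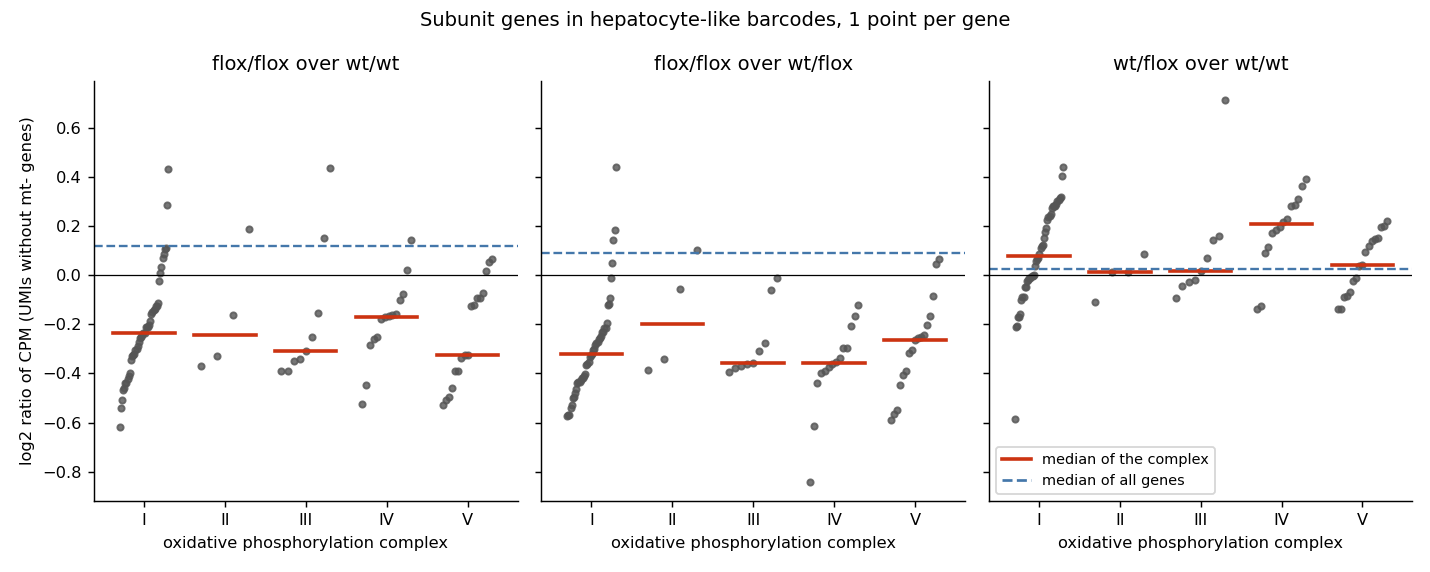
Each point is the log2 ratio of 1 subunit gene between 2 libraries in hepatocyte-like barcodes, ordered by size within complexes I to V; the red line is the complex's median and the dashed line the median of all genes. In both comparisons with flox/flox the median of every complex lies below 0 while that of all genes lies above it.

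The 5 complexes held unequal parts of the total. Complex V contributed 31.0%, 30.1% and 30.6% of the member UMIs in library order. Complex IV contributed 26.0%, 27.2% and 27.3%, complex I 25.8%, 25.8% and 24.9%, complex III 14.9%, 14.7% and 14.6% and complex II 2.31%, 2.19% and 2.57%. Their summed levels in flox/flox over wt/wt differed by log2 -0.28 (-0.29 to -0.26) for complex I, -0.26 (-0.28 to -0.24) for complex III, -0.25 (-0.26 to -0.24) for complex V, -0.16 (-0.17 to -0.15) for complex IV and -0.077 (-0.12 to -0.030) for complex II. The complex II sum rests on Sdha, whose ratio was 0.19, while Sdhb, Sdhc and Sdhd had -0.37, -0.16 and -0.33. By the median over genes, complex IV was nearest to wt/wt at -0.17 and complex V farthest at -0.33, with -0.24 for complexes I and II and -0.31 for complex III. Against wt/flox the same summed ratios were -0.37, -0.33, -0.30, -0.32 and -0.092 for complexes I, III, V, IV and II. Complex IV had the largest ratio of wt/flox over wt/wt, at 0.16 (0.14 to 0.17), and complex II the smallest, at 0.015 (-0.033 to 0.063).

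Complex I, the NADH dehydrogenase, was represented by 7 core subunits, 29 accessory subunits and 8 assembly factors. All 7 core genes and 24 of 29 accessory genes were lower in flox/flox than in wt/wt, where 39.7% of all genes were, with medians of -0.24 and -0.25. Ndufb9, an accessory subunit of the membrane arm (chr15:58933756-58939488, plus strand, GRCm38), had the highest level of the complex at 1138, 1070 and 741.3 CPM in library order. The flox/flox level was the lowest of the 3 and the other 2 lay close together. Its ratio was -0.62 (-0.67 to -0.57) against wt/wt and -0.53 (-0.58 to -0.48) against wt/flox. Ndufa2 and Ndufa7, the accessory subunits next in level, stood at 588.9, 588.1 and 470.9 CPM and at 547.0, 591.0 and 436.1 CPM. Levels are tags per transcript and were not divided by length, since a 3' kit reads each transcript once.

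Among core subunits, Ndufs8, which carries iron-sulfur clusters, stood at 112.5, 111.7 and 79.1 CPM, with ratios of -0.51 (-0.66 to -0.35) and -0.50 (-0.66 to -0.34) for flox/flox against wt/wt and wt/flox. Ndufv1, the flavin-binding subunit that takes electrons from NADH, stood at 130.6, 113.2 and 96.5 CPM. It was highest in wt/wt and lowest in flox/flox, as was Ndufa10, an accessory subunit, at 259.8, 230.7 and 213.0 CPM. Ndufs1, the largest core subunit, differed little, at 101.9, 94.95 and 94.2 CPM, and its interval for flox/flox over wt/wt included 0 (-0.27 to 0.038).

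The accessory genes Ndufa12 and Ndufa11 were among the 6 members with the largest ratio of wt/flox over wt/wt. Ndufa12 stood at 103.0, 139.8 and 109.5 CPM and Ndufa11 at 159.7, 199.0 and 134.1 CPM in library order. The wt/flox level was highest for both, with ratios over wt/wt of 0.44 (0.30 to 0.58) and 0.32 (0.20 to 0.43). Ndufc2, another accessory subunit, differed little, with 184.6, 192.2 and 198.8 CPM and intervals that included 0 in each of the 3 comparisons. Its ratio of flox/flox over wt/flox was 0.049 here, -0.0061 with all UMIs as the denominator and -0.022 with median-of-ratios size factors.

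The assembly factors, which help build complex I and are not part of the finished enzyme, spread more widely. Their median for flox/flox over wt/wt was -0.074, with 3 above 0 and 5 below, where 60.3% of all genes lay above 0. Ndufaf4 (chr4:24898083-24905001, plus strand) was highest in flox/flox, at 77.5, 92.1 and 104.6 CPM, 0.43 (0.27 to 0.59) above the wt/wt library and 0.18 (0.029 to 0.34) above wt/flox on the log2 scale. Ndufaf8 was lowest there, at 103.7, 103.7 and 71.2 CPM, with -0.54 (-0.71 to -0.38) against each of the others. These 2 factors of the same process thus lay in opposite directions. Ndufaf1, part of the membrane arm's assembly machinery, stood at 24.9, 32.9 and 30.3 CPM. Ndufaf5, Ndufaf6 and Ndufaf7, at 4.08 to 6.11, 20.4 to 25.1 and 12.8 to 14.4 CPM, had intervals that included 0 in every comparison.

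Complex II, succinate dehydrogenase, is the only complex of the chain encoded wholly in the nucleus, and its 4 genes did not share 1 direction. Sdha, the flavoprotein that oxidises succinate (chr13:74322254-74350280, minus strand), was highest in flox/flox, at 388.7, 412.6 and 443.4 CPM. On the log2 scale it lay 0.19 (0.12 to 0.26) above the wt/wt library and 0.10 (0.030 to 0.18) above wt/flox. Sdhb, its iron-sulfur partner, was lowest there, at 204.5, 206.5 and 158.1 CPM, with -0.37 (-0.48 to -0.26) and -0.39 (-0.50 to -0.27). The membrane anchors Sdhc and Sdhd stood at 237.0, 220.0 and 211.8 CPM and at 174.0, 175.7 and 138.7 CPM. The 4 subunits of 1 enzyme thus had unequal RNA ratios between libraries.

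Complex III passes electrons from coenzyme Q to cytochrome c, and 7 of its 9 genes were lower in flox/flox than in wt/wt, where 39.7% of all genes were. The small subunits Uqcrq, Uqcr11 and Uqcrh had the highest levels, at 1953, 1927 and 1493 CPM, at 1267, 1284 and 1002 CPM, and at 1118, 1173 and 902.9 CPM. Wt/wt and wt/flox lay close together for all 3 and flox/flox lay below both, with ratios to wt/wt of -0.39, -0.34 and -0.31. Uqcrb, which lies near the coenzyme Q site (chr13:66900617-66905378, minus strand), differed from them. It stood at 370.8, 608.1 and 502.3 CPM in library order, so wt/wt was the lowest. Its ratio of 0.71 (0.64 to 0.78) for wt/flox over wt/wt was the largest among members, and that of flox/flox over wt/wt was 0.44 (0.37 to 0.51).

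Complex IV, cytochrome c oxidase, has subunits with tissue forms. Cox4i1, Cox6a1, Cox6b1, Cox7a2 and Cox8a were measured at 355.2 to 1411 CPM, while the alternative forms Cox4i2, Cox7b2 and Cox8b had 0 UMIs, which allows 3 UMIs per library. The muscle form Cox7a1 was present at 10.7, 14.0 and 7.84 CPM, with a ratio of -0.84 (-1.34 to -0.35) for flox/flox over wt/flox. Its intervals against wt/wt included 0 for both other libraries. Ndufa4l2, an alternative to Ndufa4, stood at 3.05, 3.93 and 2.57 CPM with intervals that included 0 throughout.

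The highest levels of complex IV were those of Ndufa4, a small subunit first assigned to complex I, Cox6c and Cox7c. Ndufa4 stood at 1427, 1770 and 1577 CPM, Cox6c at 1483, 1726 and 1318 CPM and Cox7c at 1512, 1611 and 1242 CPM. The wt/flox level was highest for all 3, and flox/flox was lowest for Cox6c and Cox7c but not for Ndufa4. Cox4i1, the largest nuclear-encoded subunit, followed another order, at 1376, 1260 and 957.2 CPM, with a ratio of -0.52 (-0.57 to -0.48) for flox/flox over wt/wt. Cox7a2l, grouped here as a factor of supercomplexes that hold complexes III and IV, stood at 246.3, 223.7 and 205.7 CPM. Whether its protein has that role in these mice was not tested. The 3 members on the X chromosome, Ndufa1, Ndufb11 and Cox7b, all were lowest in flox/flox and highest in wt/flox. On all chromosomes, flox/flox was lowest for 69 of 88 members and for 28.4% of genes with at least 50 UMIs.

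Complex V, the ATP synthase, has a catalytic F1 head and a membrane part with its stalk. The catalytic subunit Atp5b stood at 972.5, 958.2 and 776.3 CPM and its partner Atp5a1 at 959.5, 872.6 and 899.9 CPM, with ratios of -0.33 (-0.38 to -0.27) and -0.092 (-0.14 to -0.044) for flox/flox over wt/wt. Atp5e, the small epsilon subunit of the head, had the highest level of the complex at 1453, 1496 and 1023 CPM, with flox/flox lowest by -0.51 (-0.55 to -0.46) and -0.55 (-0.59 to -0.51). Atp5k, the e subunit of the membrane part, stood at 1072, 1099 and 742.2 CPM, with -0.53 (-0.58 to -0.48) and -0.57 (-0.62 to -0.52). Both had flox/flox far below 2 libraries that lay close together.

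The 3 genes Atp5g1, Atp5g2 and Atp5g3 encode the same mature c subunit of the rotor. Atp5g1 stood at 1134, 1232 and 904.0 CPM, Atp5g2 at 582.4, 549.3 and 460.6 CPM and Atp5g3 at 966.3, 1072 and 1012 CPM. The first 2 were lowest in flox/flox, with ratios of -0.33 (-0.37 to -0.28) and -0.34 (-0.40 to -0.27) to wt/wt. Atp5g3 was 0.067 (0.020 to 0.11) above wt/wt, and -0.019 with median-of-ratios size factors. Atp5md, a small subunit at the dimer interface, stood at 706.9, 701.4 and 734.0 CPM, nearly level across the libraries. Its ratio of flox/flox over wt/wt was 0.054 here and -0.032 with median-of-ratios factors, and that over wt/flox was 0.066 and -0.0057.

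**Figure D2:**
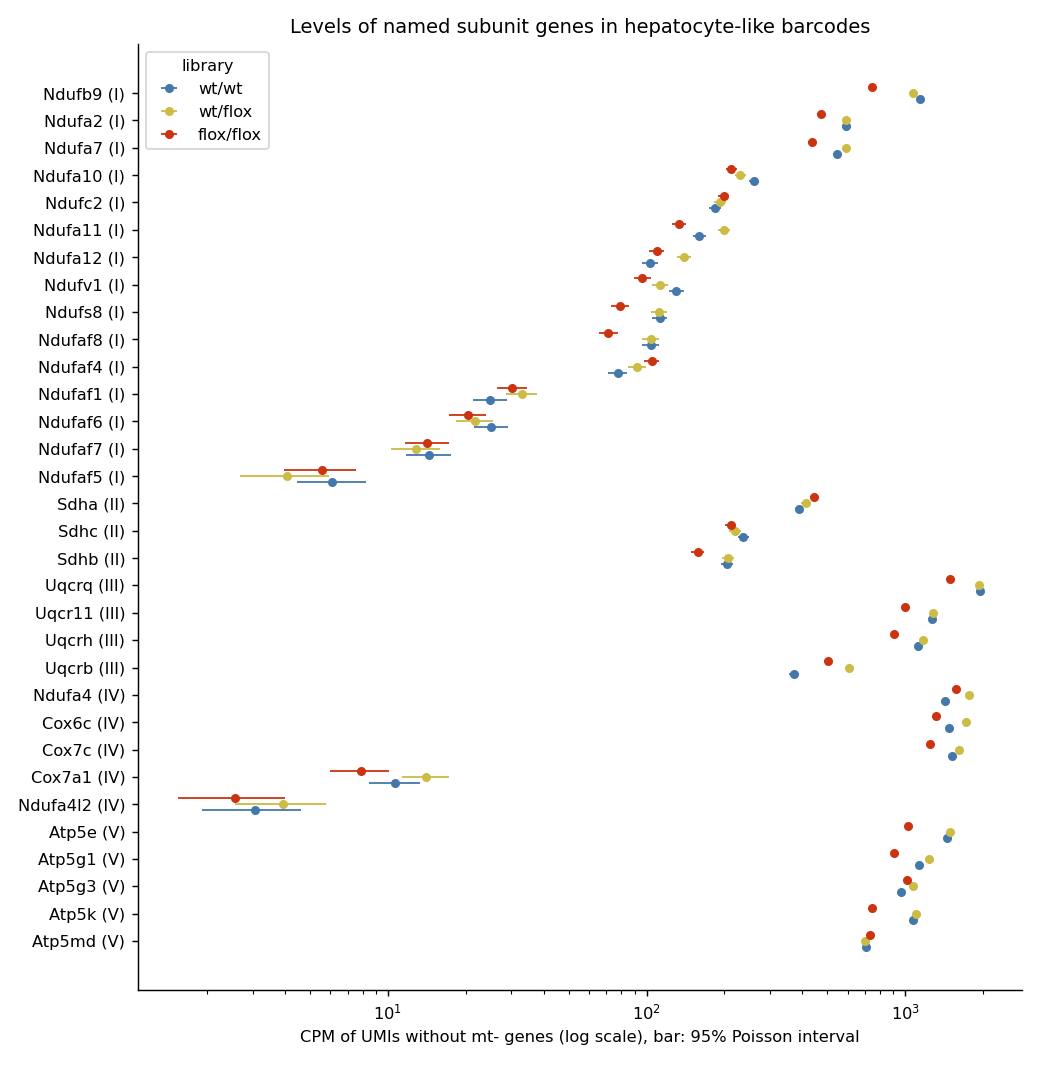
Points are CPM of UMIs without mitochondrially encoded genes on a log scale for named members in the 3 libraries, with exact Poisson 95% intervals and the complex in brackets. Red flox/flox points lie to the left of both others for most members, and to the right of both for Ndufaf4, Sdha, Ndufc2 and Atp5md, of which Atp5md and, against wt/flox, Ndufc2 change sides with median-of-ratios size factors.

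Promoters of members were compared by letters alone. RefSeq windows on GRCm38.p6, from 250 bases before to 50 bases after the start, were matched for 76 of 93 members. GCATGCGC, the core of the binding motif of nuclear respiratory factor NRF1, was in 12 of 76 (15.8%) and in 3.05% of all genes with a window. AAGATGGCG, a YY1 motif, was in 8 (10.5%) and in 1.64% of genes. CCGGAAGT, an ETS motif, was in 5 (6.58%) and in 4.31%. The TATA box TATAAA was in 8 (10.5%) and in 15.7%. Both strands were searched, none of the 4 motifs contains another, and a match is no proof of binding. Printed below are 60-base stretches before the RefSeq start, with the motif in capitals. They are from Ndufaf4 (highest in flox/flox) and from Ndufa11, Cox6a1 and Uqcr11 (all highest in wt/flox and lowest in flox/flox). For Cox6a1 the interval of flox/flox over wt/wt included 0 (-0.15 to 0.0035). For Uqcr11 that of wt/flox over wt/wt did (-0.024 to 0.062). The NRF1 letters are shown for Ndufaf4, Ndufa11 and Cox6a1. The ETS letters are shown for Uqcr11, whose window also holds the NRF1 letters nearer to the start. The stretches lie at chr4:24897945-24898004 (plus strand), chr17:56717677-56717736 (plus), chr5:115349086-115349145 (minus) and chr10:80406853-80406912 (minus).
Ndufaf4: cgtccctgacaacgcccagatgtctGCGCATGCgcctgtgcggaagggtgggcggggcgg
Ndufa11: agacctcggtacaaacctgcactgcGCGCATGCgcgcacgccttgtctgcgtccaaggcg
Cox6a1: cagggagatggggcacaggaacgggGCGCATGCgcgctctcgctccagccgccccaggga
Uqcr11: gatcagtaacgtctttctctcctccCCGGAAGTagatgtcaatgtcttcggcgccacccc
For Ndufaf4, Ndufa11 and Cox6a1 the capitals are the motif as read on the other strand. These 3 were picked from the 12 members with the NRF1 letters. Whether the letters go with a direction between libraries was not tested.

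The 13 mitochondrially encoded subunits of the same complexes lay in the opposite order to the nuclear-encoded members. Their median log2 ratios, on the same denominator, were 0.47 for flox/flox over wt/wt, 0.73 for flox/flox over wt/flox and -0.24 for wt/flox over wt/wt. All 13 were above 0 in both comparisons with flox/flox, where 60.3% and 58.1% of all genes were, and 12 of 13 were below 0 in wt/flox over wt/wt, where 46.8% were. They made up 6.78%, 5.91% and 9.43% of all UMIs in hepatocyte-like barcodes, in library order.

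Other genes of mitochondrial energy metabolism had medians nearer to 0 than the members' in both comparisons with flox/flox, and no difference between lists was tested. The 17 genes of the citric acid cycle and pyruvate dehydrogenase had medians of 0.019, 0.15 and -0.023 for flox/flox over wt/wt, flox/flox over wt/flox and wt/flox over wt/wt. In the first, 4 of these 17 were 1.2-fold higher and 3 lower, where 37.8% and 19.1% of all genes were. The 34 measured assembly factors of complexes II to V had medians of -0.047, -0.079 and 0.046, and 24 genes of protein import had -0.14, -0.062 and -0.065. Cytochrome c and the genes of coenzyme Q synthesis, 14 in all, had 0.034, 0.14 and -0.16. The 10 genes of carriers for nucleotides and phosphate and of cristae had 0.081, 0.13 and -0.019. The 9 genes of other electron entry had -0.22, -0.0003 and -0.079, with Gpd2, the glycerol phosphate dehydrogenase of the inner membrane, highest at 0.61 in the first comparison.

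Among 16 genes that control mitochondrial biogenesis the medians were -0.030, 0.074 and -0.12. Ppargc1a, the coactivator PGC-1alpha, stood at 64.6, 22.3 and 98.3 CPM in library order, an order opposite to that of the summed members. Its ratio of 2.14 for flox/flox over wt/flox was the largest of that list.

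Protein-synthesis genes and short transcripts were also lower in flox/flox than the median gene. The 79 cytosolic ribosomal protein genes had medians of -0.33, -0.23 and -0.088 in the same 3 comparisons, below 0 in the third, where the members lay above it. The 78 mitochondrial ribosomal protein genes had -0.14, -0.17 and 0.041. Members have short transcripts, with a median of 683 bases against 2115 for all measured genes. Other genes under 1000 bases had medians of 0.0032, -0.030 and 0.025, and those over 2000 bases 0.20, 0.16 and 0.040. The part of transcript length in the members' ratios was not tested beyond these values.

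The member share also varied between barcodes of 1 library. After thinning each barcode to 1000 UMIs, which left out 5798, 4954 and 4868 shallower barcodes, the median share was 4.31%, 4.66% and 3.45% in library order, and 4.37%, 4.74% and 3.71% over all barcodes unthinned. The middle 50% of thinned barcodes spanned 3.07% to 5.19%, 3.44% to 5.53% and 2.38% to 4.57%, so the libraries overlapped widely.

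Up to a mitochondrially encoded share of 20%, barcodes with more such UMIs had a lower share of nuclear-encoded members in every library. In barcodes with under 2% the median share was 4.93%, 5.07% and 4.95% in library order, and the 3 libraries lay close together. At 5% to 10% the medians were 4.15%, 4.49% and 3.41%, with flox/flox lowest. At 10% to 20% they were 3.09%, 3.10% and 2.91%, and at 20% to 40%, with 57, 43 and 176 barcodes, 3.60%, 2.83% and 2.02%. On summed counts the median log2 ratio of flox/flox over wt/wt was -0.028 in the lowest range, -0.13 at 2% to 5%, -0.18 at 5% to 10% and -0.19 at 10% to 20%, against -0.24 over all barcodes. The libraries put unequal parts of their barcodes in these ranges: 721 of flox/flox, 1416 of wt/wt and 1559 of wt/flox lay in the lowest. Mitochondrial share and genotype cannot be told apart in this design.

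**Figure D3:**
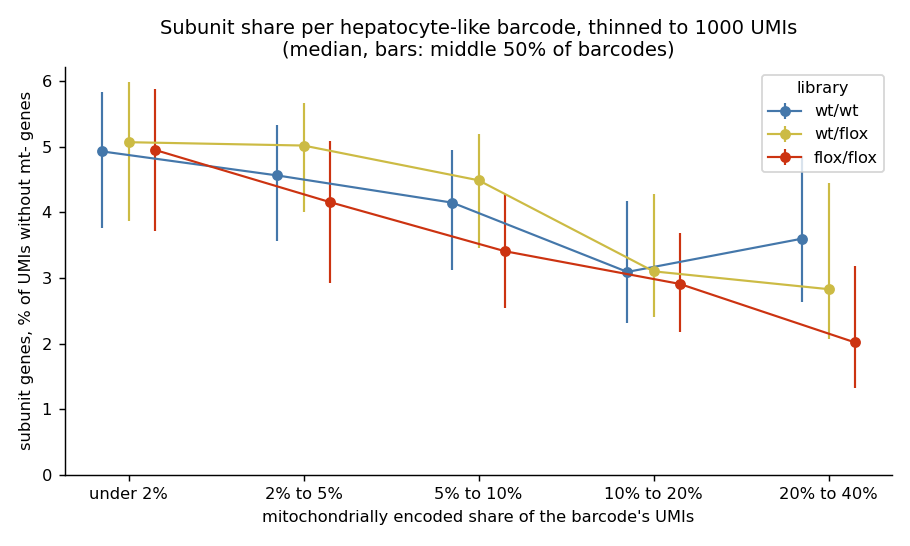
Points are the median share of subunit genes among UMIs without mitochondrially encoded genes per hepatocyte-like barcode thinned to 1000 UMIs, by the barcode's mitochondrially encoded share; bars span the middle 50% of barcodes. The 3 libraries lie at 4.93% to 5.07% in the lowest range, and flox/flox is the lowest of the 3 from 2% upward.

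The clusters that held most hepatocyte-like barcodes differed between libraries. They were 0 and 2 for wt/wt (27.0% and 25.4%), 1 and 0 for wt/flox (28.0% and 19.4%) and 4 and 5 for flox/flox (31.6% and 24.2%). Of 8 clusters with at least 200 barcodes in every library, flox/flox had the lowest member share in 7. The exception was cluster 5, with 2.94%, 2.66% and 2.83% in library order and a mitochondrial share of 14.4% to 15.8%. Of these 8, cluster 7, lowest in mitochondrially encoded UMIs, had the highest member share, at 5.54%, 5.74% and 5.36%. Clusters were built with the members among all genes, so these values are a description.

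**Figure D4:**
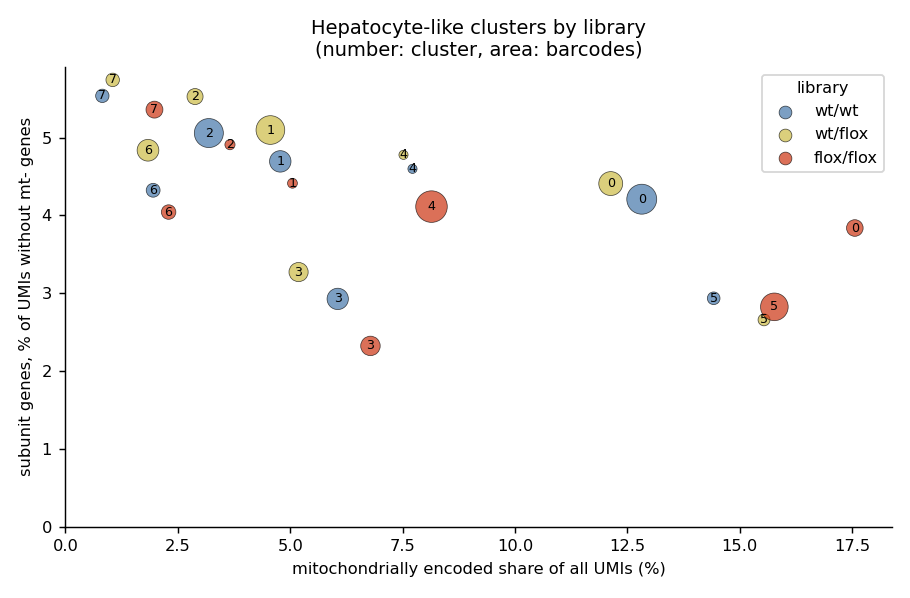
Each circle is 1 of the 8 hepatocyte-like clusters with at least 200 barcodes in every library, in 1 library, with its number inside and its area in proportion to its barcodes; the x axis is the mitochondrially encoded share of all UMIs and the y axis the member share of the other UMIs. Of these 8, clusters 3 and 5 lie lowest and cluster 7 highest in every library.

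Cluster 3 was low in members at a middling mitochondrial share, at 2.93%, 3.27% and 2.32%. Ranked within each library by the share of the nuclear RNAs Malat1 and Neat1, the 25% of barcodes highest in them had 3.32%, 3.65% and 2.70% members, and the lowest 25% 4.75%, 5.06% and 4.28%. Flox/flox was the lowest library in each of the 4 ranges. Malat1 itself stood at 5962, 6831 and 8566 CPM in library order. The part of nuclear RNA content in the members' ratios was not tested beyond these values.

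Position in the lobule, scored from 8 pericentral and 8 periportal marker genes in thinned barcodes, went with the member level in every library. The most pericentral barcodes, about equal in number to the most periportal, had 44790 CPM against 41390 in wt/wt, 47340 against 43460 in wt/flox and 38160 against 33370 in flox/flox. Counting intervals did not overlap within any library. The mitochondrially encoded share of UMIs was lower in the most pericentral barcodes than in the most periportal. It was 5.31% against 5.75% in wt/wt, 4.93% against 5.83% in wt/flox and 8.07% against 8.37% in flox/flox. Its part in the difference between zones was not tested. Barcodes were ranked within each library and the score limits differed, so the same rank is not the same lobular position across libraries. Cyp2e1, a pericentral enzyme, stood at 3320, 2818 and 2633 CPM in the most pericentral barcodes in library order. The score is a range and not a cell type.

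Outside hepatocytes the members were lower in each of 8 other classes named by markers. In Kupffer-like barcodes, the resident macrophages of liver, they made up 2.57%, 2.81% and 2.29% of UMIs in library order. In monocyte or macrophage-like barcodes they made up 2.77%, 3.40% and 2.58%, in endothelial-like 3.09%, 3.34% and 2.51%, and in stellate or fibroblast-like 2.76%, 3.06% and 2.46%. The stellate or fibroblast-like cluster also had endothelial markers at 4-fold, among them Stab2, Kdr and Clec4g, so it can hold endothelial cells. The monocyte or macrophage-like cluster also had the conventional dendritic markers Xcr1, Clec9a, Cd209a and Wdfy4 at 4-fold, so it can hold dendritic cells. Lymphoid classes lay higher, with 3.58%, 3.92% and 3.06% in T or NK-like and 3.38%, 3.96% and 2.87% in B-like barcodes. Plasmacytoid dendritic-like barcodes had 3.36%, 3.61% and 2.99% and neutrophil-like ones 3.70%, 4.25% and 3.31%. The library order of hepatocyte-like barcodes, wt/flox above wt/wt above flox/flox, held in 8 of 8 classes.

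These classes carried much hepatocyte RNA. It is called free hepatocyte RNA here, though doublets with hepatocytes, which were kept, cannot be told from it. Judged by 12 hepatocyte markers, this RNA made up an estimated 39.4% to 78.2% of their UMIs. The estimate was lower in flox/flox than in wt/wt in 7 classes and higher in endothelial-like barcodes. With that part subtracted, the member share was 1.07%, 1.24% and 1.37% in Kupffer-like barcodes in library order, and 2.28%, 2.65% and 2.32% in T or NK-like barcodes. By this summed share flox/flox was above wt/wt in 7 of 8 classes after subtraction and below it only in endothelial-like barcodes (0.702% against 1.24%), while wt/flox stayed above wt/wt in 8 of 8. By the median log2 ratio of single members after subtraction, flox/flox was also below wt/wt in T or NK-like (-0.097) and plasmacytoid dendritic-like barcodes (-0.077). On that measure wt/flox was below wt/wt in neutrophil-like (-0.16) and plasmacytoid dendritic-like barcodes (-0.016). The order of flox/flox and wt/wt outside hepatocytes thus depends on the subtraction.

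**Figure D5:**
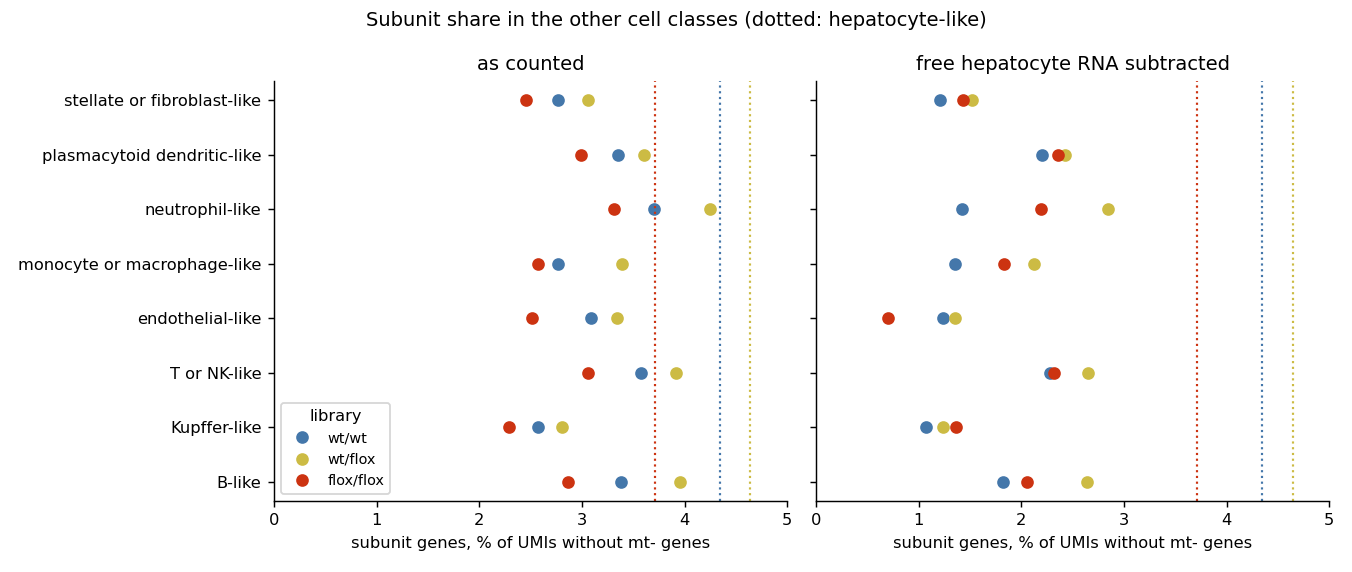
Points are the subunit genes' share of UMIs without mitochondrially encoded genes in 8 other cell classes by library, as counted (left) and with free hepatocyte RNA subtracted (right); dotted lines mark hepatocyte-like barcodes. On the left flox/flox is lowest in every class, and on the right it is lowest only in endothelial-like barcodes.

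The members named here are those ranked highest or lowest relative to hepatocyte-like barcodes in a class, and the ranks were not tested. Cox7a2l was the member highest relative to hepatocyte-like barcodes in B-like, Kupffer-like, monocyte or macrophage-like, neutrophil-like, plasmacytoid dendritic-like and stellate or fibroblast-like barcodes. In Kupffer-like barcodes it stood at 338.1, 239.1 and 300.7 CPM, with ratios to hepatocyte-like barcodes of 0.46 (0.12 to 0.78), 0.096 (-0.24 to 0.42) and 0.55 (0.25 to 0.84) in library order. Atp5md was at the low end in 5 classes. In Kupffer-like barcodes it stood at 321.6, 379.1 and 236.5 CPM, with ratios of -1.14, -0.89 and -1.63. Free hepatocyte RNA was estimated at 39.4% to 46.2% of the UMIs in that class. Ndufb11 was also low in Kupffer-like barcodes, at 144.3, 174.9 and 122.6 CPM, and Uqcrq in T or NK-like ones, at 1358, 1448 and 966.5 CPM. Ndufaf3 was among the highest relative to hepatocyte-like in T or NK-like barcodes, at 30.5, 30.4 and 26.5 CPM from 40 UMIs in all. Uqcrc1, a core protein of complex III, was so in neutrophil-like barcodes, at 214.7, 192.7 and 210.6 CPM. Among the lowest were Ndufa13 in endothelial-like barcodes, at 188.3, 280.1 and 145.9 CPM, and Ndufb5 in B-like, at 112.8, 240.3 and 199.3 CPM. Hepatocyte-like barcodes had 382.9, 451.5 and 336.4 CPM of Ndufa13 and 302.9, 302.4 and 227.7 CPM of Ndufb5, so Ndufb5 differed least in flox/flox. Ndufs3 was among the lowest in stellate or fibroblast-like barcodes, at 77.2, 90.9 and 27.0 CPM. Atp5j2 and Ndufv3 were so in neutrophil-like barcodes, at 617.4, 702.4 and 287.1 CPM and at 161.1, 236.2 and 191.4 CPM. Several of these rest on few UMIs, 3 for Ndufs3 in the flox/flox library.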

How the data were processed

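Gene-by-barcode tables of liver cells from 3 libraries, 1 per genotype, were analysed. The deposited values are UMI counts, whole numbers written by Cell Ranger 6.1.1 per the file headers. Seurat and mm10 are named in the submitters' processing notes, and other steps before deposit are not given in the sources used here. Cells came from a perfused liver and passed a low-speed spin, red cell lysis and Percoll per the labels' protocols, which can set the makeup of classes. Barcodes needed 500 UMIs, 250 genes and at most 40% mitochondrially encoded UMIs. Doublets were kept and no doublet caller was run.

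Counts were scaled to 10000, log-transformed, scaled per gene to a maximum of 10 and clustered without integration (2000 variable genes, 30 components, 15 neighbours, Leiden resolution 1) with scanpy 1.11.5 and leidenalg 0.10.2 under Python 3.11.15. Of 22 clusters, one with at least 3 markers of a class at 4-fold and in 5% of barcodes took the name of the class whose markers were most often highest there, unless another class had more markers among its 10 leading genes. Clusters with none of these and with 3 hepatocyte markers in 50% of barcodes were called hepatocyte-like. Clusters led by mitotic genes stayed unnamed. Classes needed 50 barcodes in each library, which left out erythroid-like.

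The clustering was settled with its outcome in view. A first Leiden implementation merged stellate with endothelial barcodes and leukocytes with each other. The implementation was changed and scaling per gene was added until these fell into clusters of their own and cluster sizes known from an earlier analysis came back. The stellate cluster still had endothelial markers at 4-fold. The naming rule was then revised, since a requirement of a marker among the 10 leading genes left endothelial and stellate clusters unnamed. T and NK markers led the same cluster and were kept as 1 class.

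UMIs were summed per class and library and divided by the sum without mitochondrially encoded genes. With 1 library per group no test was possible. Intervals are exact at 95%, Poisson for levels and conditional binomial for ratios, and were tested on simulated data. In ratios, counts under 3 were set to 3. Free hepatocyte RNA in a class was estimated from the level of 12 hepatocyte markers there over that in hepatocyte-like barcodes. This estimate also takes in RNA of doublets with hepatocytes. Positions and transcript lengths are from GENCODE M21 on GRCm38.

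The members, the gene lists and the naming of genes were chosen with earlier results of these data known. The zone markers, the length ranges, the ranges of mitochondrial share and the motifs were added after the files were open, and the NRF1 and YY1 motifs were shortened after a first search with longer forms. Named members are the 3 highest of each complex, the 6 of most extreme ratio in each direction with at least 50 UMIs, all of complex II, tissue isoforms, and the 2 highest and 2 lowest of each other class. Ndufs1, Atp5a1, Atp5b and the X-linked members were added after their values were seen, as was Malat1. One further member that this rule names is not reported here. The alternatives in the closing section were planned, apart from the ranges of mitochondrial share.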

Additional observations from a re-analysis of the deposited data

How the results depend on the processing

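No paired analysis was possible because each genotype had 1 library, and for the same reason no replicate could be left out. Over 14 other settings the median and summed log2 ratios kept their sign in 14 of 14 for both comparisons with flox/flox and in 13 of 14 for wt/flox over wt/wt. All settings reuse the same libraries. Those with no UMI minimum and with at least 200 UMIs per gene cannot change the sums, which always take all members. Values that moved by more than a fixed limit follow, as flox/flox over wt/wt, flox/flox over wt/flox and wt/flox over wt/wt. The limit was 0.0072 to 0.0074 for sums and 0.0786 to 0.0825 for medians, from counting intervals of the main setting. It is not the counting error of the other settings. With at least 2000 UMIs per barcode, wt/flox over wt/wt reversed to a median of -0.066 and a sum of -0.044, while the median of flox/flox over wt/wt was -0.41 and the sums with flox/flox -0.42 and -0.38. With all UMIs as the denominator the sums were -0.27, -0.38 and 0.11. With median-of-ratios size factors they were -0.32, -0.39 and 0.079, and the median of flox/flox over wt/wt was -0.32. With at least 1000 UMIs the sums were -0.26, -0.34 and 0.080. At most 10% mitochondrial UMIs gave -0.17, -0.25 and 0.087, and at most 20% gave -0.21 and -0.30 for the sums with flox/flox. Thinning to 1000 UMIs gave -0.26 and -0.35. Without the barcodes richest in Malat1 and Neat1 the sums were -0.20, -0.28 and 0.082, and with the class set by markers without clustering -0.21, -0.31 and 0.11. Means of per-barcode shares gave -0.33 for flox/flox over wt/flox and 0.10 for wt/flox over wt/wt. Within ranges of mitochondrial share, chosen after seeing the data, the medians with flox/flox were -0.028 and -0.076 under 2% and -0.13 and -0.23 at 2% to 5%. The sums were -0.045, -0.096 and 0.051 under 2%, -0.14 and -0.24 at 2% to 5%, -0.21 and -0.30 at 5% to 10%, and -0.18, -0.22 and 0.040 at 10% to 20%. The cause of these moves was not tested.

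The count of members at least 1.2-fold lower in flox/flox than in wt/wt was 37, against 45 with all UMIs and 51 with median-of-ratios factors. The median over all genes moved down as well, from 0.12 to 0.079 and 0.034. The members' median minus that of all genes stayed at -0.36 under each scaling, so the larger counts are no larger difference from other genes. The share of all genes past 1.2-fold was not counted for the other scalings. In other classes the medians of the 3 comparisons changed sign in 5, 3 and 2 of 8 classes with free hepatocyte RNA subtracted. Depth limits single members in those classes.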
